A study of Mus musculus with 4 samples.

Results

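The E2F factors and their RB family partners were examined in sorted leukemic blasts of mice as 10 genes, E2f1 to E2f8, Rb1 and Rbl1. They were taken by name, and 22 of the 34945 probe sets that the array annotation pairs with a single gene belonged to them, all by symbol and none by synonym. The brightest probe set of a gene, by its mean log2 value on the 4 arrays, stood for that gene. All 10 passed the brightness filter, which asked for a mean no lower than that of the middle probe set (106 in intensity), as did 11614 of the 18193 genes on the array. The study measured 4 Affymetrix mouse arrays, 1 for spleen and 1 for peripheral blood of each of 2 mice. Spleen blasts and blood blasts both came from a leukemia called M7 in the sample titles and T6(6) in the source names, derived from Gata1 mutant fetal progenitors (Gata1s in the title of the series) by retroviral insertional mutagenesis. The retrovirus tagged the cells with GFP, and GFP-positive blasts were sorted straight from the animals, without culture or treatment. Both mice carry the same leukemia designation, so the 2 animals need not stand for independent leukemias, and no normal cells and no leukemia of another origin were compared here. The labels give neither age nor strain of the mice.

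E2F proteins bind DNA with a DP partner and switch the genes of S phase on or off. E2F1, E2F2 and E2F3 are known as activators, E2F4, E2F5 and E2F6 as repressors that need a partner, and E2F7 and E2F8 as atypical repressors that bind DNA without DP and are themselves made in S phase. The pocket proteins RB (from Rb1) and p107 (from Rbl1) hold E2Fs in check until cyclin-dependent kinases phosphorylate them. In megakaryocytes, cells that copy their genome without dividing, this circuit is part of the machinery of endoreplication, and E2F7 and E2F8 are known for their role in polyploidization in other mouse tissues.

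Several of these genes are known targets of E2F, so the DNA around their start sites was searched for letters that E2F proteins prefer. RefSeq promoter windows, each 250 bases before to 50 bases after a start, covered 7 of the 10 genes in 9 windows: E2f1, E2f2, E2f3, E2f6, E2f7, E2f8 and Rbl1. Both strands were searched for TTTCCCGC, TTTCGCGC, TTTGCCGC and TTTGGCGC, called E2F sites here. In these windows E2f2, E2f3, E2f7 and Rbl1 held 1 site each and E2f1, E2f6 and E2f8 none. That is 4 of 9 windows (44.4%), against 2.27% of the 32841 windows of all genes. The windows of E2f1 and E2f8 lay wholly inside the annotated gene. The DNA before the outer end of these genes was therefore not searched, and a site there would be missed. The sequences of 3 of them are shown since these genes had among the larger differences between spleen and blood, with the site in capitals and the start site following the last base (build GRCm38.p6, 5′ to 3′).
E2f3, chr13:29986064-29986313, minus strand: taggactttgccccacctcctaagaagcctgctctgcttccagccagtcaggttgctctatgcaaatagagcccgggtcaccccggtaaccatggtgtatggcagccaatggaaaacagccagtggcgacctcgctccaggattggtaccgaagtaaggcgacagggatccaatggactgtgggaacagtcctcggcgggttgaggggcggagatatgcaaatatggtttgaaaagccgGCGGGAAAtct
E2f7, chr10:110745189-110745438, plus strand: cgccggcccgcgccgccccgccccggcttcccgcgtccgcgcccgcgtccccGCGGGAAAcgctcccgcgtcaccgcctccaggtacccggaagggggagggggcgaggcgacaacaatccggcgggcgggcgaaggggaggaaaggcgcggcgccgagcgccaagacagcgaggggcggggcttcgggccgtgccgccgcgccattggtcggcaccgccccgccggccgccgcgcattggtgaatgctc
Rbl1, chr2:157204535-157204784, minus strand: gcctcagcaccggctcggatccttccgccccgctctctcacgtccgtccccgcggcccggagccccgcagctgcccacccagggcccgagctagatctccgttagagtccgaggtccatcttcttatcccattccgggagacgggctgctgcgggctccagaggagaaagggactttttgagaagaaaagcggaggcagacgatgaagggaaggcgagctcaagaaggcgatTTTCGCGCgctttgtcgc
The sites lay at positions -11 to -4 in E2f3, -198 to -191 in E2f7 and -18 to -11 in Rbl1, where -1 is the base before the start. The site of E2f2 lay at positions 40 to 47, after its start, and is shown with the bases around it at chr4:136172303-136172323 on the plus strand.
E2f2: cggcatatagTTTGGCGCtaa
The hexamer TTTGAA, the core of the CHR element of genes that peak in G2 and mitosis, was searched on both strands too. It was in a window of E2f2, E2f3 and E2f8, in 33.3% of the 9 windows against 17.9% of all windows. A match of letters is a description of these windows and shows no binding.

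As a check of the label, all of the 8 listed megakaryocyte genes on the array had a mean over the brightness filter. Their means ran from 177 for Treml1, a receptor of platelet granules, to 8074 for Pf4, the platelet factor stored in granules. Treml1 passed through spleen, at 232 and 319, and lay under the filter in blood, at 82.8 and 73.8. The 4 listed B cell genes on the array all lay under the filter. Genes of other lists on the array passed too: 6 of 7 granulocyte and 7 of 8 T and NK cell genes. So did 4 of 7 macrophage and monocyte genes and 2 of 4 erythroid genes, so this check does not single out 1 lineage. Of all genes on the array, 11614 of 18193 passed. The granulocyte genes Mmp8 and Ltf passed through blood, as given below.

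Spleen blasts had higher levels than blood blasts of most E2F genes and of Rbl1, by modest amounts that did not pass the test over all genes. Higher in spleen in both mice were 8 of the 10 genes, where 38.5% of the tested genes were, and 2, E2f5 and Rb1, were lower in both, where 25.1% were, though Rb1 was nearly level in mouse 1. Both spleen arrays stood above both blood arrays for 7 of the 10, against 27.5% of the tested genes, and below them for E2f5, against 17.6%. With limma (two-sided, Benjamini-Hochberg adjustment) 0 of the 10 and 0 of the 11614 tested genes passed (0% of them). The smallest adjusted p of any gene was 0.140. Without adjustment 1443 of them lay under 0.05. A stricter brightness filter, which E2f1, E2f2, E2f3 and E2f7 did not pass, called 56 genes and an intensity trend called 45, and no E2F or RB family gene was among them. At an unadjusted p under 0.05, 5 of the 10 were higher, E2f3, E2f6, E2f7, E2f8 and Rbl1, against 8.12% of the tested genes, and 0 were lower, against 4.31%. The median fitted difference of the 10 genes was 0.26 on the log2(intensity + 16) scale, beside 0.03 for all tested genes. These are bulk arrays, so fewer cells expressing a gene and less RNA per cell cannot be told apart. The arrays of a tissue come from 2 animals, and each SE also draws on the variance of all tested genes.

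**Figure D1:**
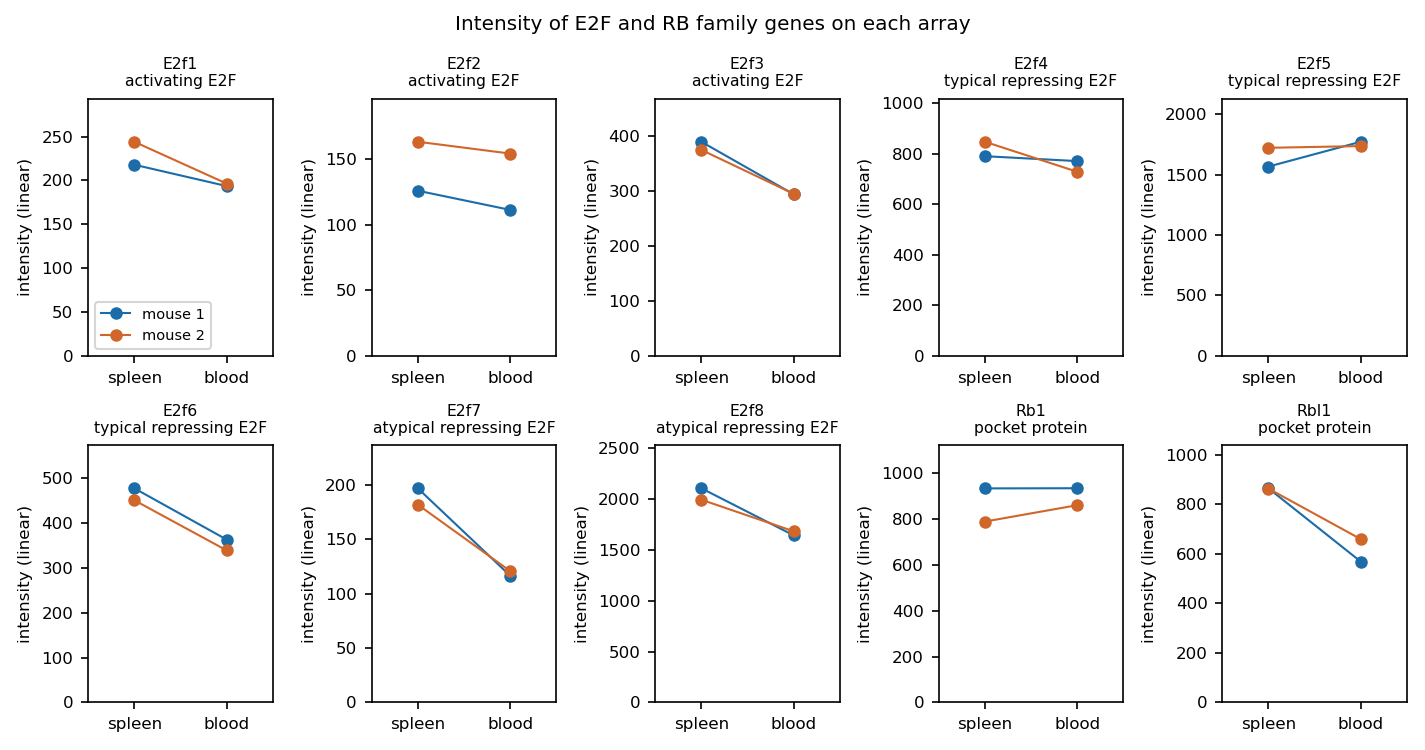
Intensity of each gene (vertical axis, linear, from 0) in spleen and blood; each point is 1 array and each line joins the tissues of 1 mouse. The lines of E2f3, E2f6, E2f7, E2f8 and Rbl1 fall toward blood in both mice, E2f2 separates the mice, and Rb1 of mouse 1 is level at 933 in both tissues.

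Among the activators, E2f3 differed most. Its intensity was 390.4 in spleen of mouse 1 and 376 in spleen of mouse 2, against 295 and 296 in blood. The blood arrays were nearly equal and both spleen arrays lay above them. The fitted difference was 0.36 ± 0.11 (SE, 2 arrays per tissue), 1.28-fold with a 95% interval from 1.06 to 1.54, at an adjusted p of 0.317. Its second, dimmer probe set had a mean of 107 and showed 0.01 for mouse 1 and 0.32 for mouse 2.

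E2f1, the activator best known for driving S phase entry and, in excess, cell death, had 218 and 244 in spleen against 194 and 196 in blood. Its groups did not overlap, and the fitted difference was 0.23 ± 0.12 (adjusted p = 0.485). This direction hangs on the probe set: a second one, almost as bright with a mean of 210.3 beside 213, had 224 and 161 in spleen against 257 and 199 in blood, which is lower in spleen in both mice by -0.18 and -0.28. The third was dim, at 44.9 and 33.4 in spleen against 40.4 and -1.25 in blood. The direction of E2f1 is therefore not settled by these arrays.

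E2f2, an activator known for its part in erythroid maturation and quiescence in mice, differed more between the animals than between the tissues. It had 126 in spleen and 111 in blood of mouse 1, and 163 in spleen and 154 in blood of mouse 2. Every array of mouse 2 lay above every array of mouse 1. Mouse 2 minus mouse 1 was 0.34 in spleen and 0.42 in blood, while spleen minus blood was 0.16 in mouse 1 and 0.07 in mouse 2. The fitted tissue difference, 0.12 ± 0.19 (adjusted p = 0.835), took no account of the pairing by mouse. With mouse as a block limma gave 0.12 ± 0.10 (adjusted p = 0.605). The value was negative without blood replicate 1 (-0.09) and without spleen replicate 2 (-0.05). In those fits 1 mouse had no pair, so the difference between the mice entered the value. For the other 9 genes mouse 2 minus mouse 1 ranged from -0.24 in spleen for Rb1 to 0.21 in blood for Rbl1.

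Of the repressors that bind with a partner, E2f6 was the one with a difference alike in both mice. E2F6 lacks the part that binds pocket proteins and works in a Polycomb complex that silences germline genes. Its intensity was 478 and 451 in spleen of mouse 1 and mouse 2, against 363 and 339 in blood, with no overlap. Spleen minus blood was 0.38 in mouse 1 and 0.40 in mouse 2, and the fitted value was 0.39 ± 0.11 (adjusted p = 0.313). A second probe set under the filter, with a mean of 75.3, differed by -0.06 and 0.57.

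E2f4, the main repressor of resting cells together with p130 and p107, stood at 790.1 and 847 in spleen against 771 and 728 in blood. The groups did not overlap, but mouse 1 differed by only 0.04 and mouse 2 by 0.21, and the fitted 0.12 ± 0.11 had an adjusted p of 0.688. E2f5, its close relative, was lower in spleen, at 1567 and 1722 against 1772 and 1737 in blood. The difference of mouse 2, -0.01, was near 0 and that of mouse 1 was -0.18. Its other probe sets were far dimmer, with means of 143 and 71.6 beside 1699, yet they too were lower in spleen in both mice, by -0.15 to -0.27. The adjusted p was 0.773.

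The atypical repressors were both higher in spleen, and E2f7 had the largest difference of the 10 genes. Its intensity was 197 and 182 in spleen of mouse 1 and mouse 2, against 116 and 121 in blood. The tissues were apart by far more than the arrays within a tissue. Spleen minus blood was 0.68 in mouse 1 and 0.53 in mouse 2, a size of at least 0.5 in both mice that 1 of the 10 members and 1.46% of the tested genes reached. The fitted difference of 0.61 ± 0.11 is 1.53-fold (95% interval 1.26 to 1.85), with an adjusted p of 0.174. E2f7 had a single probe set, so no other one checks it. With an offset of 64 in place of 16 its difference was 0.47.

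E2f8 was bright on every array, at 2107 and 1994 in spleen against 1643 and 1683 in blood. Both spleen arrays were above both blood arrays, by 0.36 in mouse 1 and 0.24 in mouse 2. The fitted difference was 0.30 ± 0.11 (adjusted p = 0.373). Its second probe set, under the filter, moved the same way by larger amounts, from 102 and 108 in spleen against 58.8 and 35.6 in blood.

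**Figure D2:**
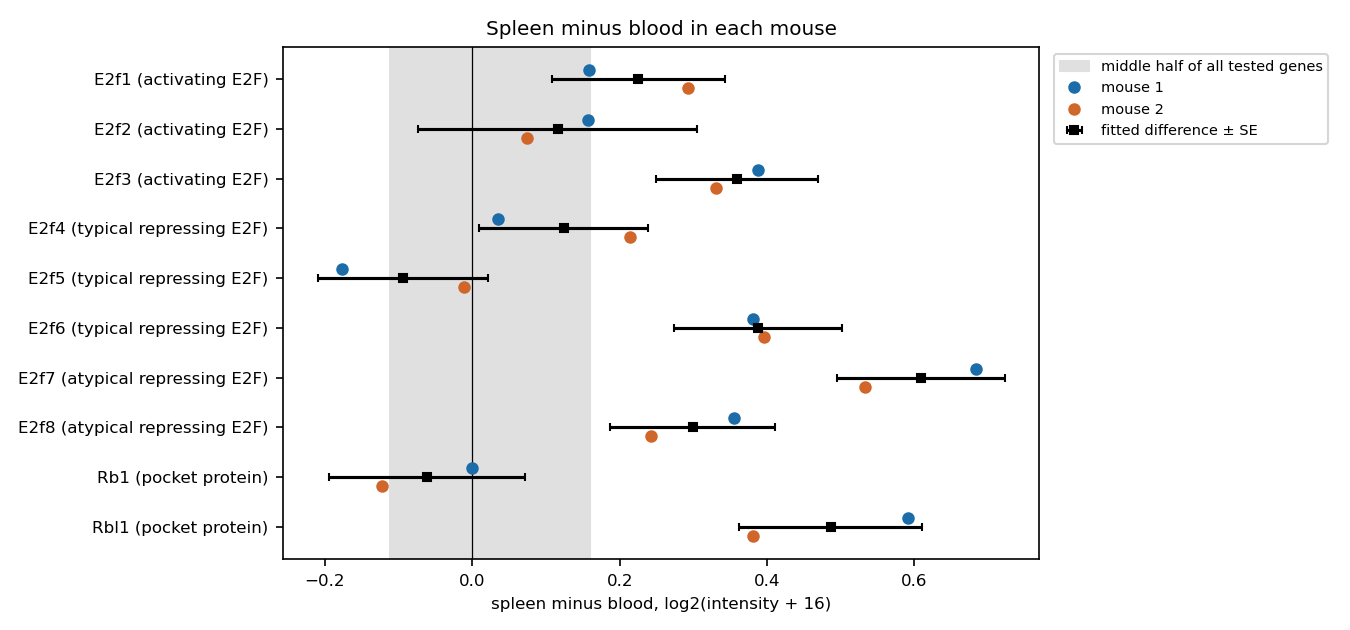
Spleen minus blood of each gene (horizontal axis, log2(intensity + 16)); circles are the 2 mice, squares with bars the fitted difference ± SE, and the grey band the middle 50% of all tested genes. E2f7 lies farthest to the right at 0.61, and E2f5 and Rb1 lie left of 0.

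Rbl1 and Rb1 encode the pocket proteins. Rbl1, which is itself an E2F target and gives p107, had 865 and 864 in spleen against 569 and 659 in blood. The spleen arrays were nearly equal and both exceeded the blood arrays, by 0.59 in mouse 1 and 0.38 in mouse 2. The fitted difference was 0.49 ± 0.12, 1.40-fold (95% interval 1.14 to 1.73), with an adjusted p of 0.260. Its 3 dimmer probe sets were higher in spleen of mouse 1 and lower in spleen of mouse 2, and the next brightest had 147 and 128 in spleen against 123 and 147 in blood.

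Rb1, the tumour suppressor, had 933 and 788 in spleen against 933 and 859 in blood, so the groups overlapped. The fitted difference was -0.06 ± 0.13, with a 95% interval from -0.39 to 0.26 and an adjusted p of 0.878. Its other probe set was close to 0 on every array, between -1.19 and 5.62. The direction of Rb1 is not settled: mouse 1 differed by -0.0011, and the fitted value was 0.12 with the mean of all probe sets and 0.06 without spleen replicate 2.

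Over all 22 probe sets, 13 were higher in spleen in both mice, 5 were lower in both and 4 went opposite ways in the mice. Of the 14 at or over the filter, 9 were higher in both, 4 lower and 1 opposite. Shares over all probe sets of the array were not counted, so these counts only describe how the probe sets of the members went.

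**Figure D3:**
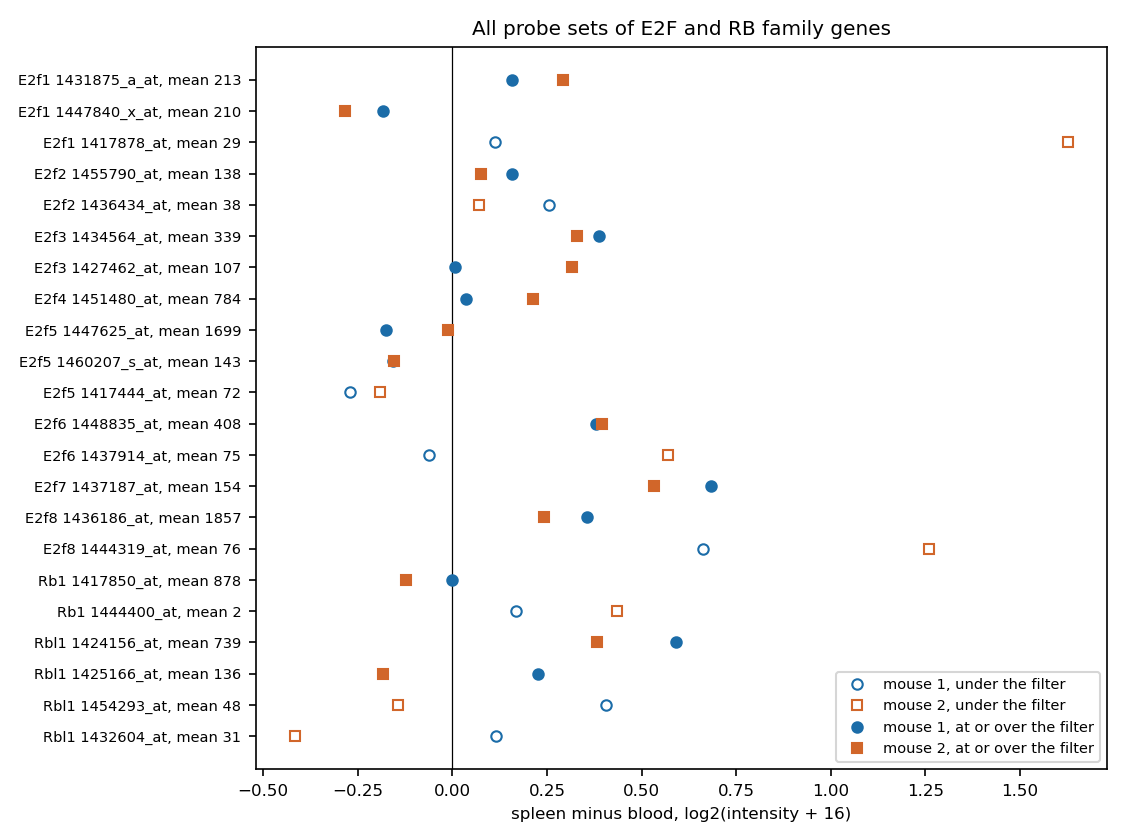
Spleen minus blood (horizontal axis, log2(intensity + 16)) for each of the 22 probe sets, with the mean intensity beside its name; circles are mouse 1, squares mouse 2, and open symbols mark probe sets under the brightness filter. The probe sets of E2f2, E2f3, E2f5 and E2f8 keep 1 direction each, while those of E2f1, E2f6, Rb1 and Rbl1 fall on both sides of 0.

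Activators and repressors were then set side by side. The mean spleen minus blood difference of E2f1, E2f2 and E2f3 was 0.23 in mouse 1 and 0.23 in mouse 2. That of E2f4 to E2f8 was 0.26 in mouse 1 and 0.27 in mouse 2. Activating minus repressing E2Fs was therefore -0.02 in mouse 1 and -0.04 in mouse 2, small beside the range from -0.09 to 0.61 among the repressors. Its sign is not settled: the mean of both mice, -0.03, was 0.0181 with quantile normalization, 0.0544 without blood replicate 2 and 0.0439 without spleen replicate 1, and it was -0.1181 without blood replicate 1 and -0.1076 without spleen replicate 2. No p is given, since the genes are not replicates of each other. Within the repressors, E2f7 and E2f8 averaged 0.52 in mouse 1 and 0.39 in mouse 2, and E2f4, E2f5 and E2f6 averaged 0.08 in mouse 1 and 0.20 in mouse 2. Against the atypical repressors alone the activators were lower, by -0.29 in mouse 1 and -0.16 in mouse 2. Against the partner-dependent repressors alone they were higher, by 0.15 and 0.03. With the next brightest probe set for the genes that have one, it was -0.33. E2f4 and E2f7 then kept their single probe set, and E2f2, E2f6 and E2f8 were read from probe sets under the filter.

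One rule named genes whose pattern over the arrays was most like that of a member with a difference of at least 0.5 in both mice, which left E2f7. By Euclidean distance between log2 values centred over the 4 arrays, the nearest of the tested genes was Cdc6, the loader of replication origins, at 0.03. Next came Isca1, an iron-sulfur cluster assembly protein, at 0.05 and Atad5, which unloads the replication clamp PCNA, at 0.07. Cdc6 had 585 and 543 in spleen against 349 and 369 in blood, a fitted difference of 0.63 ± 0.11 (adjusted p = 0.168). With 4 arrays many genes can share a profile, and the distance gives no more than likeness on these arrays.

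**Figure D4:**
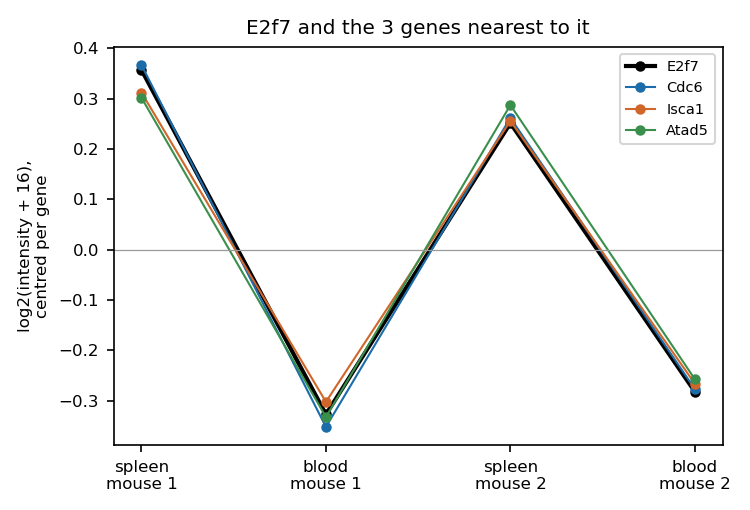
Log2(intensity + 16) of E2f7 and its 3 nearest genes, centred on each gene's mean (vertical axis), on the 4 arrays. All of the lines are high in spleen and low in blood, with a smaller step in mouse 2 than in mouse 1.

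The genes around this circuit were described from lists. Of the E2F and DREAM partners 10 genes were tested. They were the DP subunits and the MuvB complex, which join E2F4 and the pocket proteins at promoters, with Rbl2, Mybl2 and Foxm1. Spleen exceeded blood in both mice for 7 of the 10 and fell short for 2, where 38.5% and 25.1% of all tested genes did. The median difference was 0.26. Tfdp1, the main DP partner, had 2659 and 2618 in spleen against 2062 and 1999 in blood, a difference of 0.38 ± 0.11 (adjusted p = 0.312). Lin54, the MuvB subunit that binds DNA at the CHR, had 386 and 468 in spleen against 246 and 213 in blood (0.85 ± 0.14, adjusted p = 0.150). Lin9, another MuvB subunit, differed by 0.44 ± 0.14 (adjusted p = 0.344). The 2 lower genes, Lin37 and Lin52, are MuvB subunits too. They differed by -0.13 ± 0.11 (adjusted p = 0.644) and -0.11 ± 0.12 (adjusted p = 0.743), so MuvB genes went both ways. Rbl2, the gene of the pocket protein p130, differed by 0.27 in mouse 1 and -0.06 in mouse 2.

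The kinases that phosphorylate RB and their inhibitors had 6 of 13 tested genes higher in both mice and 4 lower, shares near the 38.5% and 25.1% of all tested genes, and a median of 0.02. The leading genes of this list were Ccne2, Ccnd1 and Cdk4. Ccne2, the gene of an E cyclin, differed by 0.64 ± 0.12 (adjusted p = 0.171) and Ccnd1, a D cyclin, had 284 and 243 in spleen against 172 and 165 in blood (0.60 ± 0.13, adjusted p = 0.201). Cdk4 differed by 0.30 ± 0.14 (adjusted p = 0.443). Ccnd2 went opposite ways, by 0.24 in mouse 1 and -0.96 in mouse 2.

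Of 42 tested E2F target genes of G1 and S phase, 36 had a higher level in spleen of each mouse and 5 a lower one. Among all tested genes these shares were 38.5% and 25.1%. The median of the list was 0.32. Unadjusted, 21 were higher and 0 lower at p under 0.05, where 8.12% and 4.31% of all tested genes were, and 0 passed the adjusted threshold. Ccna2, the cyclin of S phase and G2, had 2209.8 and 2586 in spleen against 1204 and 1342 in blood (0.90 ± 0.13, adjusted p = 0.140). Rrm1, a subunit of ribonucleotide reductase, differed by 0.60 ± 0.12 (adjusted p = 0.192), and Ccne2, given above, was the other leading gene. Targets of DREAM, B-MYB and FOXM1 in G2 and mitosis gave 23 of 23 higher in both mice, against 38.5% of all tested genes, with a median of 0.83. At an unadjusted p under 0.05, 23 were higher, against the same 8.12% of all tested genes, and 0 passed the adjusted threshold. Bub1, a checkpoint kinase, had 546 and 633 in spleen against 251 and 301 in blood (1.05 ± 0.14, adjusted p = 0.140). Nusap1 differed by 1.17 ± 0.13 (adjusted p = 0.140) and Aurka by 1.17 ± 0.15 (adjusted p = 0.140). The 8 members that were higher in both mice thus differed by less, from 0.12 to 0.61, than the median of these mitotic genes.

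**Figure D5:**
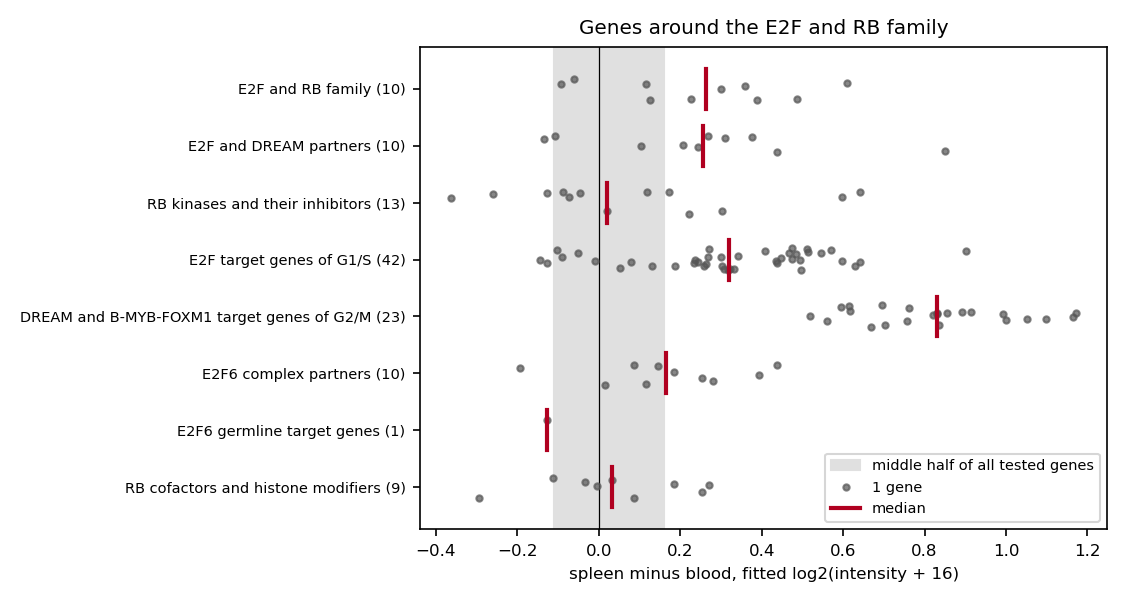
Fitted spleen minus blood (horizontal axis, log2(intensity + 16)) of each tested gene (points) in each list with its number of genes, its median (bar) and the middle 50% of all tested genes (grey band). Vertical scatter within a list has no meaning. The G2/M list has its median at 0.83 and the E2F and RB family at 0.26.

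Partners of E2F6 had 8 of 10 tested genes higher in both mice and 1 lower, where 38.5% and 25.1% of all tested genes were. Their median was 0.16. Wdr5 had 919 and 1002 in spleen against 736 and 719 in blood (0.39 ± 0.11, adjusted p = 0.312), Yaf2 differed by 0.44 ± 0.14 (adjusted p = 0.343) and Rnf2, a ubiquitin ligase of Polycomb, by 0.28 ± 0.15 (adjusted p = 0.482), with 3 of its 5 probe sets in that direction. Of 9 germline genes that E2F6 is known to silence, 8 lay under the brightness filter, which 11614 of the 18193 genes on the array passed. Tex101, the 1 that passed, had 756 and 746 in spleen against 800.3 and 844 in blood (-0.13 ± 0.11, adjusted p = 0.668). Cofactors of RB had 4 of 9 genes higher and 2 lower, again near the shares over all tested genes, and a median of 0.03. One of the lower genes, Smarca4, had 1946 and 2335 in spleen against 1960.2 and 2335 in blood and so was level. Within this list Dnmt1 differed by 0.27 ± 0.16 (adjusted p = 0.526), Hdac1 by 0.18 ± 0.12 (adjusted p = 0.568) and Sin3b by -0.29 ± 0.13 (adjusted p = 0.432), the last with 4 of 5 probe sets in that direction.

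Promoter letters were set beside the differences across genes, which are not independent. Of 435 tested genes with an E2F site in a window, 47.6% had higher levels in spleen of both animals, with a median of 0.07. Of 8970 genes without one, 38.4% were higher with a median of 0.03. Within the G1/S targets the 18 genes with a site had a median of 0.27 and the 17 without one had 0.34. Among the members with a window, E2f2, E2f3, E2f7 and Rbl1, with a site in a window, differed by 0.12, 0.36, 0.61 and 0.49. E2f1, E2f6 and E2f8, with none in the windows searched, differed by 0.23, 0.39 and 0.30, so the groups overlapped. The windows of E2f1 and E2f8 lay inside the gene, so this grouping leaves out the DNA before it.

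Markers of the lineage itself and of other blood cells differed between the arrays too. Spleen exceeded blood in both mice for 7 of the 8 megakaryocyte genes and was lower in both for 0. Of all tested genes 38.5% were higher in both mice and 25.1% lower. The median difference of the megakaryocyte genes was 0.28, and their summed intensity was 20179.8 and 21130.4 in spleen against 17886 and 17669.6 in blood. Treml1 differed by 1.61, Gp1bb by 1.06 and Ppbp by 0.99. The summed intensity of 7 granulocyte markers was 3761 and 835 in spleen of mouse 1 and mouse 2, against 6394 and 16572 in blood. All 6 of 6 tested were lower in spleen in both mice. Mmp8 lay under the filter in spleen, at 93.5 and 20.3, and Ltf did in spleen of mouse 2, at 33.4. Both passed through blood, so the filter favoured their being lower in spleen. Camp, one of the 7 markers but under the filter, was at -6.46 in spleen of mouse 2. The sum of 7 macrophage and monocyte markers was 1672 and 553 in spleen against 831 and 2749.8 in blood, with 1 of 4 tested lower in both mice, and C1qa was under 0 on every array but spleen of mouse 1. That of 8 T and NK cell markers was 7457 and 4778 in spleen against 6474 and 8951 in blood, with 3 of 7 lower in both. Most of this sum came from 2 genes. Gzma had 2757 and 171 in spleen against 1338 and 3486 in blood, and Nkg7 had 3556 and 3590 against 3675 and 4159. The sum therefore does not describe the list as a whole. The median spleen minus blood difference of the tested granulocyte markers was -0.51 in mouse 1 and -3.84 in mouse 2, while the mean of the 10 E2F and RB family genes was 0.26 in mouse 1 and 0.23 in mouse 2. The part of these markers, of either kind, in the differences of the E2F and RB family genes was not tested.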

How the data were processed

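RNA of sorted leukemic blasts from spleen and blood of 2 mice was measured on 4 Affymetrix mouse arrays. The table deposited by the authors holds intensities per probe set, linear rather than log to judge by their range. The authors' summarisation, background subtraction and scaling are not given in the sources used here. Array medians ran from 103.7 to 110.6, and 1.60% to 2.17% of values were below 0. Negative intensities were raised to 0, and log2 was taken after adding 16, which understates changes of dim genes. Of 45101 probe sets, 34945 named 1 gene, 932 named several and stayed out; symbols were updated by gene ID with RefSeq GRCm38.p6, which held 34754. Promoter sequences are RefSeq's. The array files name no build. Promoter coordinates, and whether a window lay inside a gene, follow the RefSeq build, and no other gene coordinates are given.

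Spleen was compared with blood over 11614 genes with limma 3.58.1 (lmFit, eBayes; R 4.3.3), tissue as the sole term, threshold 0.05 after Benjamini-Hochberg adjustment. Errors are SE of the fit or SD of arrays. The SE uses the variance of a gene after limma moved it toward that of all tested genes, so it is not the spread of 2 arrays alone. The source names of the samples give mouse 1 or mouse 2 for both tissues, so the numbers pair the arrays; mouse differences in spleen and blood correlated at r = 0.10 across genes, and mouse as a block was an alternative. The fit was also run on simulated data of 11614 independent genes with no mouse effect, 200 of them changed 2-fold or 4-fold. There 74.8% of 2-fold and 98.4% of 4-fold changes were recovered and 5.23% of calls were wrong. These rates need not hold for the arrays, where Bub1 and Nusap1 differed by over 1 in log2 in both mice and did not pass. The named genes were all members, and in each list the 3 genes of 1 direction whose weaker mouse differed most. The 3 genes nearest to a member that differed by 0.5 in both mice were named too. Rbl2, Lin37, Lin52, Ccnd2 and Smarca4 were chosen after their values were seen. So were the marker genes Pf4, Treml1, Gp1bb, Ppbp, Mmp8, Ltf, Camp, C1qa, Gzma and Nkg7. Other offsets, scalings, filters and probe set rules, and leaving out each array, were tried. Members and lists were chosen with earlier results of these data known. Precision is limited by the number of arrays.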

Additional observations from a re-analysis of the deposited data

How the results depend on the processing

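Of 136 values of single members under the alternatives, 130 kept their direction, 6 turned, and 0 passed the adjusted threshold (lowest adjusted p with limma 0.129, for Rbl1 under the stricter brightness filter). Rb1 turned to 0.1194 with the mean of all probe sets and to 0.3007 with the next brightest probe set (E2f4 and E2f7, with a single one, kept theirs), an alternative added after seeing the data, and leaving out 1 array moved it from -0.1812 to 0.0573. E2f1 turned to -0.2344 with the next brightest probe set. E2f2 ranged from -0.0939 to 0.3253 with 1 array left out. Many of the 130 kept directions could not have turned. Another filter, the mouse block and the intensity trend leave each fitted difference as it was. Another offset could not turn it, since each member had 1 direction in both mice. E2f4 and E2f7 also had no other probe set. The 130 is therefore no measure of stability. The count of members higher in spleen in both mice was 6 with the next brightest probe set, 7 with quantile normalization and 8 otherwise. Another offset could not change this count, and it cannot be given with 1 array left out. Activating minus repressing E2Fs, -0.03 over both mice, was 0.0181 with quantile normalization, -0.0762 with the mean of all probe sets, -0.3289 with the next brightest probe set, 0.0940 with typical repressors only, -0.2206 with atypical repressors only, and ran from -0.1181 to 0.0544 with 1 array left out. Over all genes, limma called 0 in the reported fit, 56 with the stricter brightness filter, 45 with an intensity trend and from 0 to 20 with 1 array left out, and 20 came without spleen replicate 1. With mouse as replicate block 0 genes were called and no call of a member changed. The activating minus repressing value was -0.03 there too, which is no check. With 1 array of each tissue per mouse, the block cannot change a fitted difference. Of the 63 list medians 4 turned: RB kinases and inhibitors to -0.0435 and RB cofactors to -0.0017 with quantile normalization, RB cofactors to -0.0120 with the mean of all probe sets, and RB kinases, which ran from -0.0147 to 0.2163 with 1 array left out. The cause of these changes was not tested. Under median centring all genes shifted to a median of 0.07, beside 0.03 as reported.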
